A study of Mus musculus with 8 samples.

Results

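Genes of the Notch pathway were read in mouse embryonic stem (ES) cells that had received an esiRNA (many short duplex RNAs cut from a long one, which lower the matching transcript) against Ctr9 or against luciferase. The gene set was the 10 members Notch1, Notch2, Notch3 and Notch4 (receptors), Dll1, Jag1 and Jag2 (ligands) and Hes1, Hes5 and Hey1 (nuclear repressors), taken by name out of 18193 genes on the array. All 10 were measured, by 19 of the 45037 probe sets tested, namely every probe set whose annotation holds a member's symbol and no other. Both groups consisted of ES cells labelled Oct4-Gip at passage 25, transfected by lipofection and taken on day 4, with 4 arrays for the luciferase esiRNA, the transfection control, and 4 for the Ctr9 esiRNA. Ctr9 is a subunit of the Paf1 complex, which accompanies RNA polymerase II, and the question put here is which Notch pathway transcripts changed with its esiRNA. The labels do not state that a group's arrays stem from independent cultures, and p-values therefore reflect the spread between these arrays, which may be technical.

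Notch signalling passes between neighbouring cells. A Delta or Jagged ligand on the surface of one cell binds a Notch receptor on the next. The bound receptor is cut by an ADAM protease and then by gamma-secretase. The freed intracellular domain joins the DNA-binding protein RBPJ and a Mastermind coactivator in the nucleus. The best known genes switched on in this way are those of the Hes and Hey repressors. In ES cells the pathway is known mainly for its part in the choice of lineage when self-renewal ends, in particular towards neural fates.

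Arrays of the same group correlated at 0.997 to 0.998 over probe sets and those of different groups at 0.992 to 0.994, and the array medians lay between 5.74 and 5.76 on the log2 scale. Of 10 ES cell markers, none read below the array median in the control arrays. With Ctr9 esiRNA 6 of them were lower, against 15.0% of all genes, and none was higher. The summed linear signal of all 10 was 74800 to 76300 with Ctr9 esiRNA and 88000 to 90100 with luciferase. The brightest of the 10, Dppa5a, weighs most in this sum and did not pass. The log2 differences of the 6 that were lower were -1.1 (Esrrb), -0.97 (Tcl1), -0.94 (Fgf4), -0.46 (Zfp42), -0.44 (Nanog) and -0.2 (Pou5f1). The other 4 did not pass. Ctr9 itself, the target, did not pass on its brightest probe set, at 10.20 ± 0.058 with luciferase and 10.11 ± 0.027 with Ctr9 esiRNA (SD, n = 4 each, log2 signal, p = 0.0857 in an exact permutation test, two-sided, which cannot go below 0.0286 with 4 against 4). Among its 4 dimmer probe sets 2 were lower and 1 was higher. Each of these 3 calls ended when any of several single arrays was left out (limma adjusted p up to 0.103, 0.0766 and 0.0637). These probe sets do not settle how far the target was lowered, and the groups are called by their labels. In a bulk sample, fewer cells of a type and less RNA per cell cannot be told apart.

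With each gene read by its brightest probe set, 7 of the 10 members differed between the treatments at a limma adjusted p below 0.05, against 30.8% of all 18193 genes. Notch2, Notch3, Dll1 and Hey1 were higher with Ctr9 esiRNA (4 of 10, against 15.8% of all genes) and Notch1, Notch4 and Hes1 were lower (3 of 10, against 15.0%). In those same 7 genes the 4 values of one group did not overlap the 4 of the other, which held for 36.6% of all genes. Of the 19 probe sets, 9 passed (5 higher, 4 lower), against 24.9% of all probe sets, and the same number had groups that did not overlap, against 28.6%. The sizes were modest. The median absolute log2 difference was 0.319 for the members' brightest probe sets and 0.111 for all genes, and the signed medians were 0.126 and 0.004. No filter on low signals was applied, and 14 of the 19 probe sets lie above the median signal of the array. Calls are more frequent among such brighter probe sets. When only these were tested, 11287 of all 22518 passed, and so did 11 of the 14 member probe sets.

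**Figure D1:**
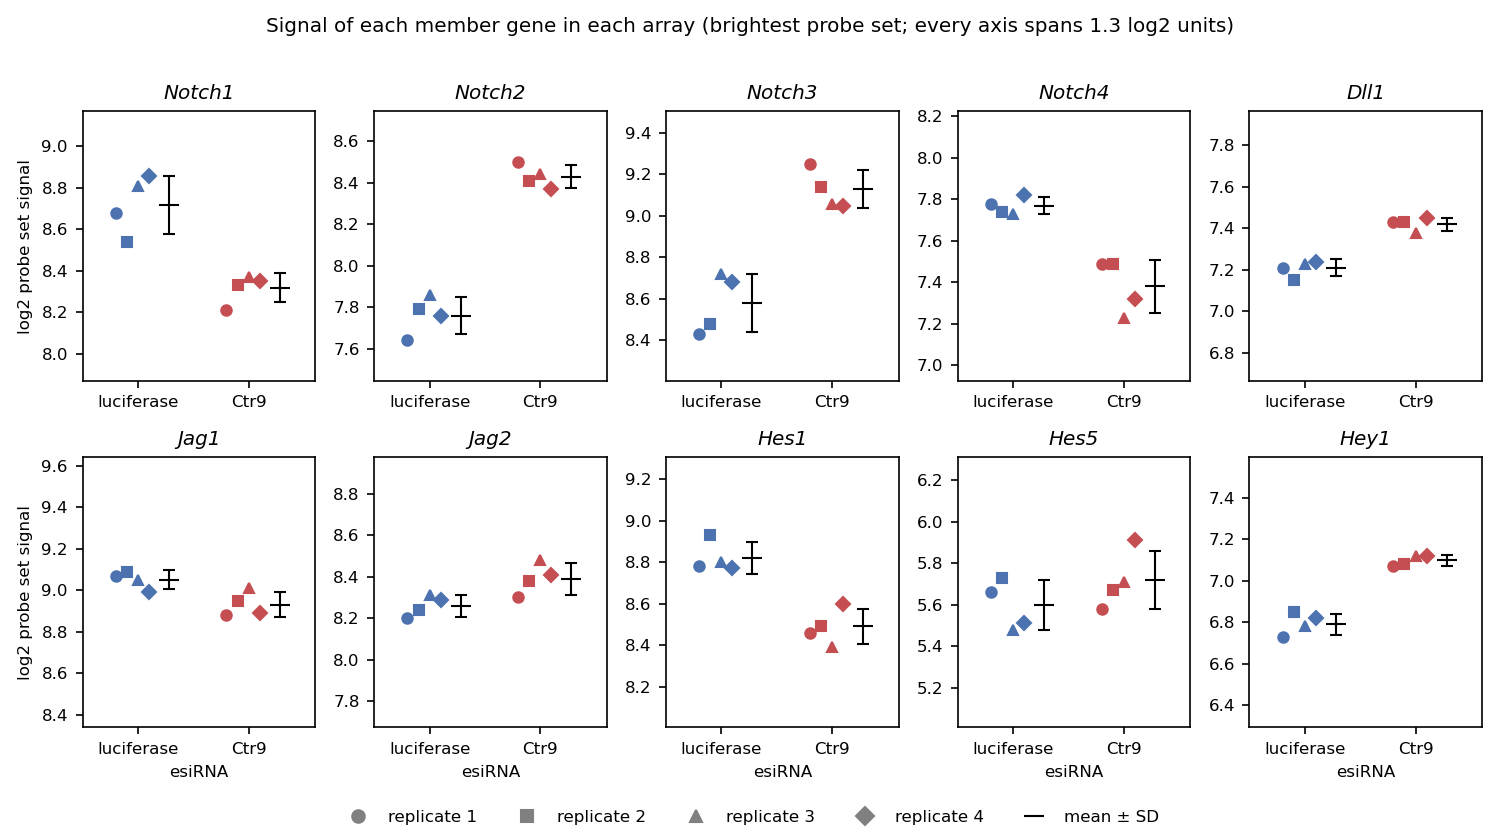
Log2 signal of the brightest probe set of each member gene (vertical axis, 1.3 log2 units in every panel) in the 4 luciferase esiRNA arrays (blue) and the 4 Ctr9 esiRNA arrays (red), with a marker shape for each replicate number and the mean ± SD of each group in black. The groups do not overlap for Notch1, Notch2, Notch3, Notch4, Dll1, Hes1 and Hey1, and they overlap for Jag1, Jag2 and Hes5.

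All 4 receptors passed the test, and they went in opposite directions, with Notch2 and Notch3 higher and Notch1 and Notch4 lower. The 250 bases upstream of their RefSeq starts (build GRCm38.p6, 5′ to 3′ on the gene's strand) are shown because these genes differed most among the members. Capitals mark matches, on either strand, to TGGGAA, the core of the site that RBPJ binds, and to CACGNG, which covers sites bound by Hes and Hey repressors.
Notch1, chr2:26503823-26504072, minus strand: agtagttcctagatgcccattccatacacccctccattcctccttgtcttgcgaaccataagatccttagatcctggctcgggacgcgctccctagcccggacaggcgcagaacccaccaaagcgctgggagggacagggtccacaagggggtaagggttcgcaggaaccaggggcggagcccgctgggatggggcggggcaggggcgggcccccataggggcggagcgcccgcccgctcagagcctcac
Notch2, chr3:98013288-98013537, plus strand: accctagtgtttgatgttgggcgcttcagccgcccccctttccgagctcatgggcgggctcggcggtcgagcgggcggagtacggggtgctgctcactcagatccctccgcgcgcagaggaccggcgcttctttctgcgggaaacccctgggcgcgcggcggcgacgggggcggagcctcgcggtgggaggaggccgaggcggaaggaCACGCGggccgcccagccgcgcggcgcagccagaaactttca
Notch3, chr17:32166891-32167140, minus strand: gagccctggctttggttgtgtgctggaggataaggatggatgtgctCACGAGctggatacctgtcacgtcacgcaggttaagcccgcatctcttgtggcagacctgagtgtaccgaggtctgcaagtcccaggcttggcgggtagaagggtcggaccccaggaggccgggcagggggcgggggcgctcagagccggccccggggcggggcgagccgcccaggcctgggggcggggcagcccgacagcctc
Notch4, chr17:34564045-34564294, plus strand: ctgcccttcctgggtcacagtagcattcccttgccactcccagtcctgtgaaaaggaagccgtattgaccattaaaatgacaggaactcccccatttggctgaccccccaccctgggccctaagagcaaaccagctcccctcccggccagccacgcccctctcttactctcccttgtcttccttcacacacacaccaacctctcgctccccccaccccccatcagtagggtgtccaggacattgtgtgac
No receptor window holds TGGGAA, and those of Notch2 and Notch3 hold 1 match each to CACGNG. Among 32851 windows of this length in the RefSeq table, 21.6% hold TGGGAA and 23.5% hold CACGNG. Of the members, 8 have windows in the table, 9 in all. CACGNG occurs in those of 4 genes, Notch2, Notch3, Dll1 and Jag1, and TGGGAA in that of Hes5 alone. A match describes these letters and does not show that a factor binds there.

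Notch2 had the largest difference of the members. Its brightest probe set, 1455556_at, read 7.64, 7.79, 7.86 and 7.76 in luciferase arrays 1 to 4 and 8.50, 8.41, 8.44 and 8.37 in Ctr9 esiRNA arrays 1 to 4. Every Ctr9 esiRNA array lay above every control array. The log2 difference was 0.66 (SE 0.057, 1.59-fold, limma adjusted p = 2e-05), and it lay between 0.62 and 0.71 over the 18 other settings tried. The other Notch2 probe set, 1451889_at, is dim, below the array median of 5.75, and its groups overlapped, at 5.01 ± 0.19 and 4.92 ± 0.033 (SD, n = 4 each). It did not pass (-0.09, 95% interval -0.27 to 0.10, limma adjusted p = 0.518), so the rise of Notch2 rests on the brighter probe set. With the mean of both probe sets, the difference was 0.29 (SE 0.051, limma adjusted p = 0.00148).

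Notch3, a receptor known from vascular smooth muscle, rose on both of its probe sets. The brighter, 1421965_s_at, read 8.43, 8.48, 8.72 and 8.68 in luciferase arrays 1 to 4 and 9.25, 9.14, 9.06 and 9.05 in Ctr9 esiRNA arrays 1 to 4. The groups did not overlap, and the difference of 0.55 (SE 0.077, 1.46-fold) passed (limma adjusted p = 0.000518). The suffix s marks a design whose probes can match more than 1 transcript. The dimmer probe set, 1421964_at, read 6.76, 6.46, 7.16 and 7.02 in the control arrays and 7.28, 7.54, 7.20 and 7.27 in the Ctr9 esiRNA arrays. Its difference of 0.47 (SE 0.14, limma adjusted p = 0.031) passed, although Ctr9 esiRNA array 3 lay only just above control array 3.

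For both Notch3 probe sets, luciferase arrays 1 and 2 were lower than arrays 3 and 4, by 0.25 on the brighter and 0.48 on the dimmer. With control arrays 1 and 2 left out, the brighter probe set, Notch3 1421965_s_at, still differed by 0.42 (limma adjusted p = 0.00569), and with arrays 3 and 4 left out by 0.67 (0.000703). The dimmer one, Notch3 1421964_at, differed by 0.23 (limma adjusted p = 0.162) and 0.72 (0.00439). Its call also ended when 1 of 5 single arrays was left out. These were luciferase arrays 1 (0.44, limma adjusted p = 0.0764) and 2 (0.34, 0.0537) and Ctr9 esiRNA arrays 1 (0.49, 0.0622), 2 (0.40, 0.0839) and 4 (0.49, 0.0536). It also ended with the replicate number as a block (0.47, 0.0656), so the Notch3 call rests on the brighter probe set.

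Notch1 fell on both of its probe sets. The brighter, 1418634_at, read 8.68, 8.54, 8.81 and 8.86 in luciferase arrays 1 to 4 and 8.21, 8.33, 8.37 and 8.35 in Ctr9 esiRNA arrays 1 to 4. All 4 Ctr9 esiRNA values lay below the lowest control value. The difference was -0.40 (SE 0.074, a change of -24.4%, limma adjusted p = 0.00259), and it was -0.52 or -0.29 with luciferase arrays 1 and 2 or 3 and 4 left out. The dimmer probe set, 1418633_at, went from 7.57 ± 0.040 to 7.35 ± 0.034 (SD, n = 4 each) without overlap and differed by -0.22 (SE 0.044, limma adjusted p = 0.00468).

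Notch4, a receptor best known from endothelial cells, was lower on 1 of its 3 probe sets, the brightest. This one, 1449146_at, read 7.78, 7.74, 7.73 and 7.82 with luciferase and 7.49, 7.49, 7.23 and 7.32 with Ctr9 esiRNA in arrays 1 to 4. The groups did not overlap, and arrays 3 and 4 of the Ctr9 esiRNA group were the lowest. The difference was -0.38 (SE 0.066, a change of -23.3%, limma adjusted p = 0.00188). The other Notch4 probe sets, 1456263_at and 1436901_at, are dim, at 4.39 ± 0.12 and 3.63 ± 0.12 in the control arrays (SD, n = 4), and differed by -0.01 (95% interval -0.23 to 0.21) and -0.04 (-0.21 to 0.14). The mean of all 3 differed by -0.14 and did not pass (SE 0.053, limma adjusted p = 0.0602), so the call for Notch4 rests on 1 probe set.

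**Figure D2:**
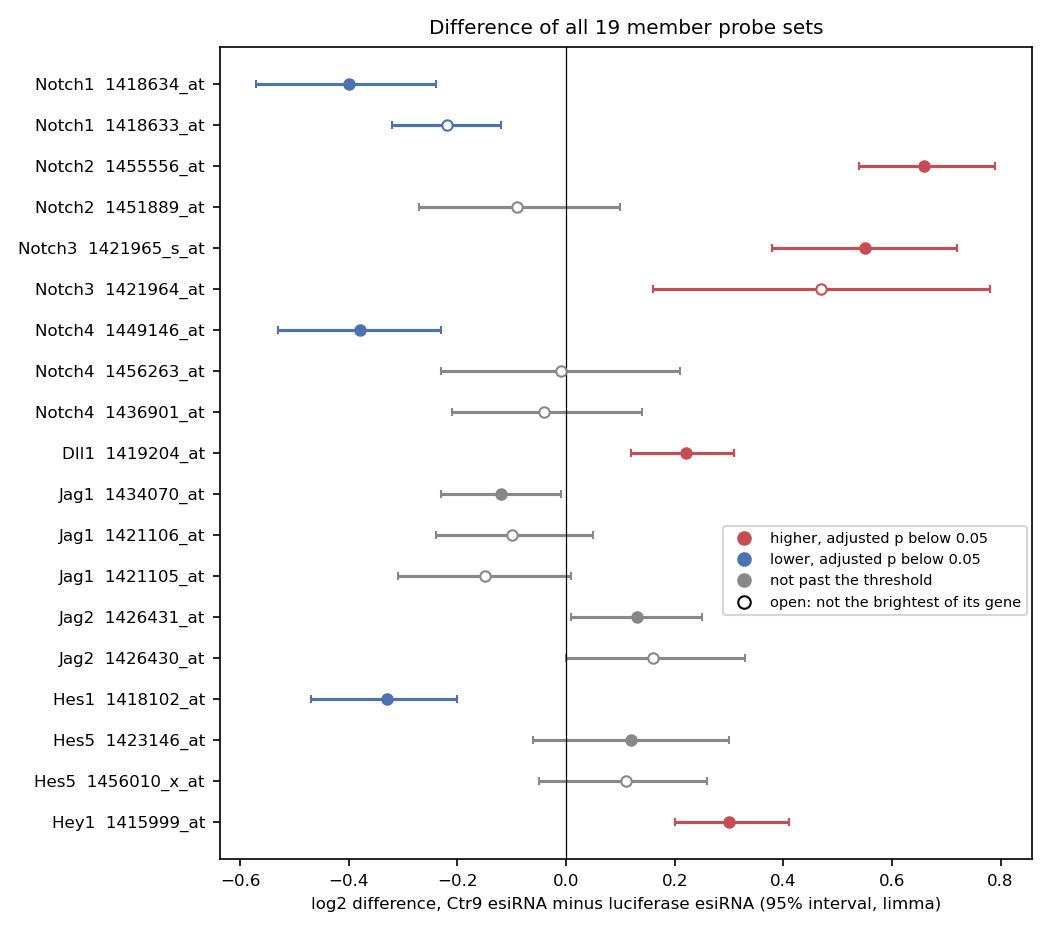
Log2 difference, Ctr9 esiRNA minus luciferase esiRNA, of all 19 member probe sets (horizontal axis) with its 95% interval from limma. Red marks probe sets that were higher and blue those that were lower at an adjusted p below 0.05, grey marks those that did not pass, and open circles are probe sets that are not the brightest of their gene. The receptors span the range, from -0.40 for Notch1 to 0.66 for Notch2.

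Among the ligands only Dll1 passed, and the difference between the ligands was not tested. Dll1, a Delta ligand of somites and neural progenitors, has 1 probe set, 1419204_at, which read 7.21, 7.15, 7.23 and 7.24 in luciferase arrays 1 to 4 and 7.43, 7.43, 7.38 and 7.45 in Ctr9 esiRNA arrays 1 to 4. The spread within each group was small, and the groups did not overlap. The difference was 0.22 (SE 0.044, 1.16-fold, limma adjusted p = 0.00497), and its adjusted p rose to 0.0448 with luciferase arrays 1 and 2 left out.

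Jag1 and Jag2, the Jagged ligands, did not pass on any of their probe sets. The brightest Jag1 probe set, 1434070_at, read 9.07, 9.09, 9.05 and 8.99 with luciferase and 8.88, 8.95, 9.01 and 8.89 with Ctr9 esiRNA. Only Ctr9 esiRNA array 3 reached into the control range, and the difference was -0.12 (95% interval -0.23 to -0.01, limma adjusted p = 0.115). The other 2 Jag1 probe sets differed by -0.10 and -0.15, and the mean over all 3 was lower by a small amount that passed (-0.12, SE 0.039, limma adjusted p = 0.0346). The brighter Jag2 probe set, 1426431_at, read 8.20, 8.24, 8.31 and 8.29 with luciferase and 8.30, 8.38, 8.48 and 8.41 with Ctr9 esiRNA. Here Ctr9 esiRNA array 1 lay within the control range, and the difference was 0.13 (95% interval 0.01 to 0.25, limma adjusted p = 0.105). The other Jag2 probe set differed by 0.16 (limma adjusted p = 0.141). When only probe sets above the median signal were tested, both brightest ones passed, Jag1 lower (limma adjusted p = 0.0422) and Jag2 higher (0.0415).

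Hes1 and Hey1, which encode repressors of the same family, passed in opposite directions. Hes1, a common readout of Notch activity whose level is known to oscillate in ES cells, has 1 probe set here, 1418102_at. It read 8.78, 8.93, 8.80 and 8.77 in luciferase arrays 1 to 4 and 8.46, 8.49, 8.39 and 8.60 in Ctr9 esiRNA arrays 1 to 4. Every Ctr9 esiRNA array was below every control array, and the difference was -0.33 (SE 0.059, a change of -20.6%, limma adjusted p = 0.00224). Hey1, whose product is a repressor that takes part in vascular and cardiac development, was read by 1415999_at. It read 6.73, 6.85, 6.78 and 6.82 with luciferase and 7.07, 7.08, 7.12 and 7.12 with Ctr9 esiRNA. All 4 values rose above the control range, with a difference of 0.30 (SE 0.045, 1.24-fold, limma adjusted p = 0.000745). Over the 18 other settings the difference stayed between -0.37 and -0.30 for Hes1 and between 0.28 and 0.33 for Hey1, and both calls held.

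Hes5, a repressor gene active in neural progenitors and a direct target of RBPJ in many tissues, read low in these cells and did not pass. Its brighter probe set, 1423146_at, lay below the array median at 5.66, 5.73, 5.48 and 5.51 with luciferase and was 5.58, 5.67, 5.71 and 5.91 with Ctr9 esiRNA. The groups overlapped, and the difference was 0.12 (95% interval -0.06 to 0.30, limma adjusted p = 0.337). The dimmer one, 1456010_x_at, whose suffix x marks probes that can cross-hybridise, differed by 0.11 (-0.05 to 0.26). The background step of RMA, the summary method named for these values, compresses low signals, and a Hes5 difference of this size was within the spread between arrays. Its upstream window is shown because it alone among the members' windows holds TGGGAA, with 2 matches that start 226 and 82 bases before the RefSeq start (GRCm38.p6, capitals as above).
Hes5, chr4:154960673-154960922, plus strand: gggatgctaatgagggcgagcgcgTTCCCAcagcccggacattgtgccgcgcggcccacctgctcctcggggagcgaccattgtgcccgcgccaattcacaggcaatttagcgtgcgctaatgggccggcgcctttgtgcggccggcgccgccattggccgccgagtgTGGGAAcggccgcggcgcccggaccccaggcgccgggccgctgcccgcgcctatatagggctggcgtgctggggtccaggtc

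**Figure D3:**
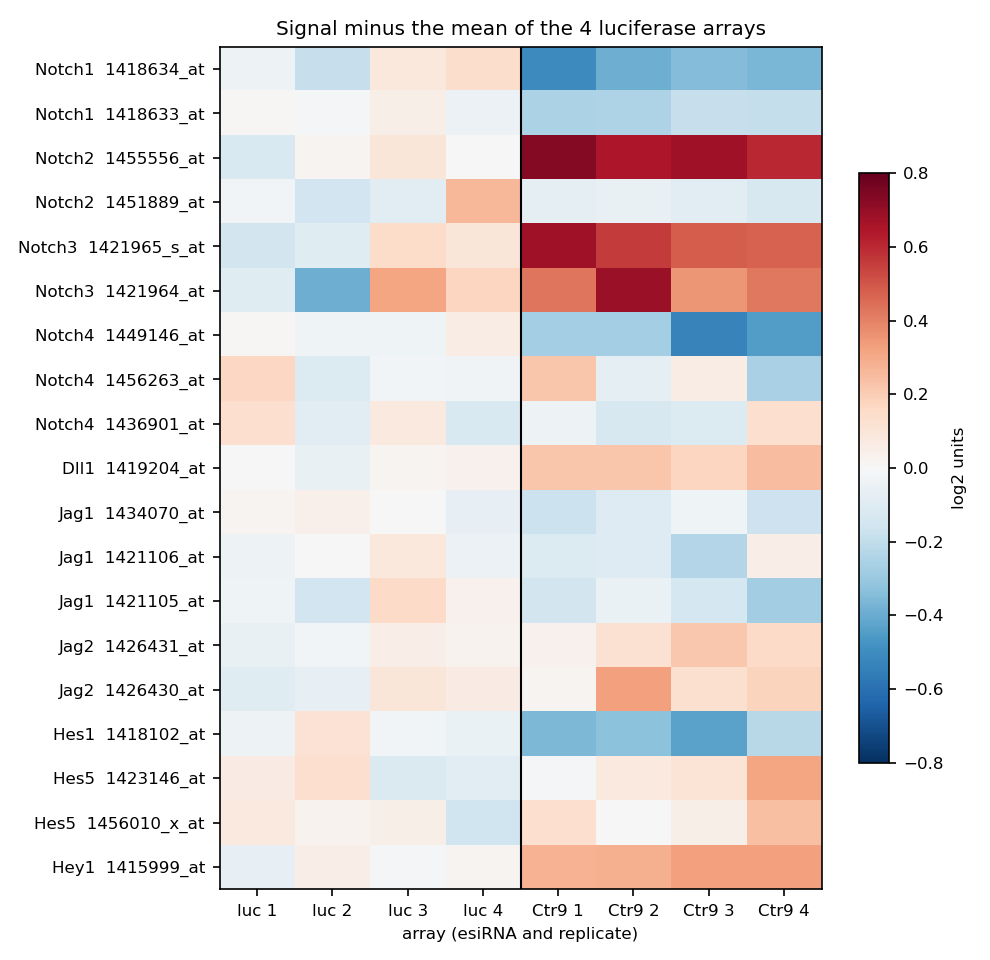
Log2 signal of each of the 19 member probe sets (rows) in each array (columns, luciferase arrays 1 to 4 left of the line, Ctr9 esiRNA arrays 1 to 4 right of it) minus the mean of the 4 luciferase arrays, as colour from -0.8 (blue) to 0.8 (red). The Notch2, Notch3, Dll1 and Hey1 rows that passed are red in all 4 Ctr9 esiRNA arrays, those of Notch1, Notch4 and Hes1 are blue, and the dimmer Notch3 row also varies among the luciferase arrays.

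The other genes of the pathway were read from a list of 61 that holds 55 genes measured here. Of these 55, 17 were higher and 11 lower at a limma adjusted p below 0.05, where the shares of all genes were 15.8% and 15.0%, with a median log2 difference of -0.003 and a median absolute difference of 0.152. The count fell to 17 (13 higher, 4 lower) with luciferase arrays 3 and 4 left out. Most of the listed genes read bright, and calls are more frequent among brighter probe sets. When only probe sets above the median signal were tested, 28 of 47 listed genes passed (16 higher, 12 lower). So did 11287 of all 22518 such probe sets. The list was written with earlier results of these data known, and the counts describe it without a test of the list. Named here are up to 4 genes per role with the smallest adjusted p among those that passed. Of these 26, 15 kept their call in every setting tried. Maml1, Maml2, Kat2a, Aph1a and Nrarp are named beside them and did not pass on their brightest probe set.

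Kat2b and Rbpj, both of the nuclear complex, had the largest decreases on the list. Rbpj, the DNA-binding protein through which all 4 receptors act, fell on all 3 of its probe sets. The brightest fell by 0.48 (SE 0.046, limma adjusted p = 4.25e-05), from 11.60 ± 0.051 to 11.12 ± 0.033 (SD, n = 4 each), and the others by 0.28 and 0.43. Kat2b, an acetyltransferase that works with the Notch complex and many others, fell by 0.61 (SE 0.048, n = 3 control values with an SD of 0.0015) and on its next probe set by 0.71 (SE 0.062). Ep300, another acetyltransferase, was higher by 0.18, and that call ended when any of 7 of the 8 arrays was left out (limma adjusted p up to 0.0993). The other 4 genes of this role, among them the Mastermind genes Maml1 and Maml2, did not pass on their brightest probe set. A dimmer probe set of Kat2a, 1 of these 4, was lower (-0.16, limma adjusted p = 0.0403).

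The enzymes that add sugars to the receptors did not move together. Lfng, a Fringe glycosyltransferase that tunes which ligands a receptor answers to, rose by 0.93 (SE 0.11, 1.90-fold, limma adjusted p = 0.00014), from 6.23 ± 0.055 to 7.16 ± 0.25 (SD, n = 4 each), while its dim second probe set differed by 0.25 (limma adjusted p = 0.101). The other Fringe genes were lower, Mfng by 0.22 and Rfng by 0.19 (limma adjusted p = 0.0118 and 0.0147), and so was Poglut1, an O-glucosyltransferase, by 0.34 (limma adjusted p = 0.000958). The Mfng and Rfng calls ended with luciferase arrays 3 and 4 left out (limma adjusted p = 0.101 and 0.0977). The dimmer Rfng probe set was also lower (-0.36, limma adjusted p = 0.0018, n = 3 control values with an SD of 0.0014). The window upstream of Lfng is shown because Lfng differed most among the sugar-adding enzymes, and it was chosen after its values were seen. Rbpj, which fell, was scanned too. Its windows 1 and 2, which overlap, hold TGGGAA 2 times and 1 time and CACGNG 0 times. The Lfng window holds TGGGAA 2 times and CACGNG 3 times, and in 1 place the matches overlap (GRCm38.p6, capitals as above).
Lfng, chr5:140607091-140607340, plus strand: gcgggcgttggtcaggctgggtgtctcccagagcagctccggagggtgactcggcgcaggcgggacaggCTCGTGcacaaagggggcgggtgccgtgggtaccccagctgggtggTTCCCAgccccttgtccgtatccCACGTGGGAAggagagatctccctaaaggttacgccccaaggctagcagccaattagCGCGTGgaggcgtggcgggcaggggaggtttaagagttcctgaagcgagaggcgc

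Of 8 measured genes of receptor cleavage, 4 were higher on their brightest probe set and none was lower on it. Of all genes, 15.8% were higher and 30.8% passed in either direction. A dimmer probe set of Aph1a, a gamma-secretase subunit gene, was lower by a margin at the threshold (-0.20, limma adjusted p = 0.05), while its brightest did not pass (0.12). Furin, the convertase of the receptor's first cut, rose by 0.41 (SE 0.049), the protease gene Adam10 by 0.31 (SE 0.054) and the gamma-secretase subunit gene Psenen by 0.24 (SE 0.045), each in every setting tried. Of the 3 other Adam10 probe sets, 1 was higher (0.18) and 2 did not pass (0.05 and 0.01). Adam17 was higher by 0.15 on its top probe set and not on the other 2, and this call ended when any of 6 of the 8 arrays was left out (limma adjusted p up to 0.0951) and in 9 of the 18 settings in all. Among 4 other ligand genes, Dlk1, an imprinted and atypical ligand, rose by 1.04 (SE 0.075, 2.06-fold, n = 3 control values with an SD of 0.0052). The other Dlk1 probe set, which is dim, did not pass (0.07, limma adjusted p = 0.599). Dll3, a Delta protein that does not activate receptors from outside, rose by 0.30 (SE 0.058, limma adjusted p = 0.00342).

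Genes that act on the ligands, on receptor turnover and on repression went both ways. Of the ubiquitin ligases that ready ligands for uptake, Mib1 was higher (0.18) and Mib2 and Neurl1a were lower (-0.27 and -0.16). The Mib2 call ended with either pair of control arrays left out (limma adjusted p up to 0.103). The Mib1 call ended without any of 7 single arrays and that of Neurl1a without any of 6 (limma adjusted p up to 0.0876 and 0.105). Of the dimmer probe sets, 1 of 2 for Mib1 was higher (0.40) and 1 of 5 for Neurl1a was lower (-0.40). The Deltex genes Dtx4 and Dtx2, which act on receptor traffic, rose by 0.46 (SE 0.055) and 0.29 (SE 0.051). Numb, which restrains Notch in dividing cells, differed by 0.16 and the ubiquitin ligase gene Nedd4 by -0.18, and neither call was stable. The adjusted p reached 0.0577 and 0.0551 with single arrays left out, 0.064 and 0.0596 with the replicate number as a block, and 0.109 and 0.14 with luciferase arrays 3 and 4 left out. The other Numb probe set did not pass (0.02), and of 2 others for Nedd4 1 was lower (-0.25). Among the corepressors, Tle4 rose by 0.32 (SE 0.060) and Tle3 fell by 0.30 (SE 0.045), while Cir1 and Ctbp1 were higher by 0.22 and 0.19. The Ctbp1 call ended without any of 4 single arrays (limma adjusted p up to 0.067), and the Cir1 call with control arrays 3 and 4 left out (0.124).

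Of 6 measured further genes of the Hes and Hey family, 2 rose and the other 4 did not pass. Of all genes, 15.8% rose and 30.8% passed in either direction. Hes6, a family member that opposes Hes1 in neural differentiation, rose by 0.57 (SE 0.074, 1.48-fold, limma adjusted p = 0.000297) on its brightest probe set and by 0.59 (SE 0.092) on the other. Hes3, a gene of neural progenitors, rose by 0.46 (SE 0.086, limma adjusted p = 0.00301) from a dim 5.07 ± 0.082 (SD, n = 4). Nrarp, listed with the negative regulators, is switched on by Notch and dampens it, and it did not pass (0.11, limma adjusted p = 0.159).

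**Figure D4:**
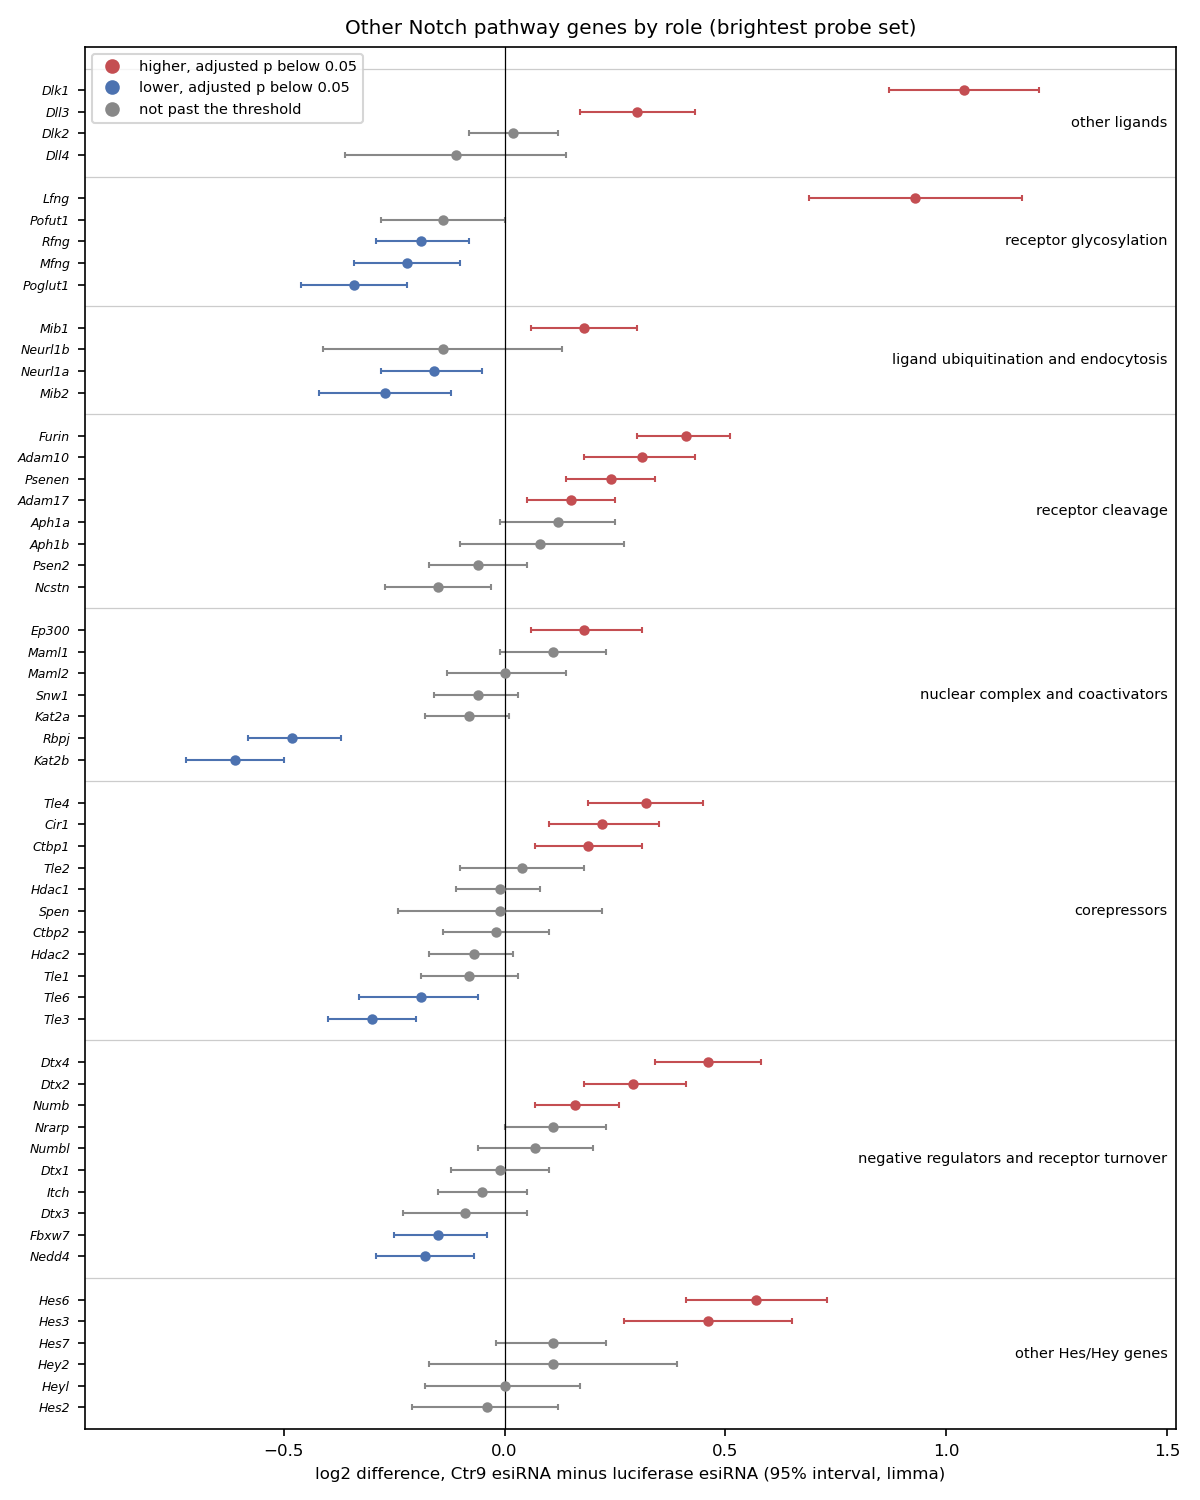
Log2 difference, Ctr9 esiRNA minus luciferase esiRNA (horizontal axis), with its 95% interval from limma, for the brightest probe set of each of the 55 other Notch pathway genes, in blocks by role. Red genes were higher and blue genes lower at an adjusted p below 0.05. Dlk1 (1.04) and Lfng (0.93) lie farthest to the right and Kat2b (-0.61) and Rbpj (-0.48) farthest to the left.

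Some markers of other cell types differed too, several by more than any Notch member. Of the neural progenitor and endothelial genes, 4 of 8 and 3 of 8 passed. Of the fibroblast and presomitic mesoderm genes, 2 of 8 and 1 of 6 passed. Of all genes, 30.8% passed, 15.8% higher and 15.0% lower. Among 8 neural progenitor genes, 3 were higher and 1 was lower. Sox1, a transcription factor of early neural cells, rose from 6.25 ± 0.087 to 7.59 ± 0.14 (SD, n = 4 each), a difference of 1.33 (SE 0.075, 2.52-fold, limma adjusted p = 1.4e-06). Fabp7 rose by 0.72 and Nes by 0.39, while Pax6 fell by 0.79, so their summed linear signal, 568 to 632 in the control arrays and 666 to 736 in the Ctr9 esiRNA arrays, adds opposite changes. Among 8 endothelial genes, Sox18 rose by 0.79 and Esam by 0.38 and Tek fell by 0.26, with sums of 557 to 597 and 594 to 614. Among 8 fibroblast genes, for feeder cells, Dcn rose by 0.57 and Col1a2 by 0.24, with sums of 346 to 372 and 398 to 417. Among 6 genes of presomitic mesoderm Mesp2 fell by 0.36, with sums of 302 to 316 and 277 to 304. In the control arrays 5, 3, 5 and 2 genes of these lists, in this order, read below the array median. The part of such cells in the differences of the Notch genes was not tested.

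The 3 genes whose profile over the 8 arrays was most like that of Notch2 were Plagl1, Il17rd and Tasor2. After subtraction of each gene's control mean, they lay within a root mean square distance of 0.0428, 0.0474 and 0.0501 log2 units of it, with differences of 0.67, 0.69 and 0.70.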

How the data were processed

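RNA of 8 mouse ES cell samples was measured on 1-colour Affymetrix arrays after one-cycle biotin labelling, per the labels' protocols. The authors deposited 1 log2 signal per probe set. The submitters' processing notes name GCOS 1.4 and RMA without settings. RMA corrects background and equalises arrays, which compresses low signals and hides a shift common to all genes.

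The log2 values were used as deposited. The 64 control probe sets were left out, which leaves 45037. The platform annotation gives 1 symbol for 34945, several for 932 and none for 9160, and symbols were updated by Entrez number (34741 found in the GRCm38.p6 table). Groups were compared with limma 3.58.1 in R 4.3.3 (lmFit, eBayes, no trend), two-sided, with p-values adjusted by Benjamini-Hochberg across the 45037 and called below 0.05. SE is moderated. A gene is read by its brightest probe set over 8 arrays. The fit was tested on simulated data. Named are all members and, per role, up to 4 other genes with the smallest adjusted p among those that passed. Maml1, Maml2, Kat2a, Aph1a and Nrarp are named outside this rule. The members and lists were chosen with earlier results of these data known. Alternatives were other scalings, filters, priors, weights, a replicate block, left-out arrays and a threshold of 0.01. Looking at the named pathway genes and further Ctr9 probe sets 1 by 1 was added after seeing the data. Upstream windows are the first 250 bases of the RefSeq table's entries. Figures used matplotlib 3.10.9.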

Additional observations from a re-analysis of the deposited data

Results flagged for a closer look

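In 98 groups of 4 values, from the member probe sets, the named pathway genes and Ctr9, 3 held a value far from the other 3, and chance gives about 1 in 20. None was a member's. Tle3 read 10.42 in luciferase array 2, against 10.36 to 10.37 in the others. Tle4 read 11.41 in Ctr9 esiRNA array 1, against 11.29 to 11.31. Hes6 read 7.54 in Ctr9 esiRNA array 4, against 7.76 to 7.80.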

How the results depend on the processing

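Of the 9 member probe sets that passed, 8 kept direction and call in all 18 settings, the exception being the dimmer Notch3 one. The number of members past the threshold was 7 in every setting that tested all 10. Among probe sets above the median signal it was 9 of 9, where 11287 of all 22518 such probe sets passed. With probe sets averaged per gene, the number of members was also 7, with Jag1 in place of Notch4. For the other pathway genes, 28 passed, 15 at an adjusted p below 0.01 and 17 with luciferase arrays 3 and 4 left out. With the replicate number as a block, 8 member probe sets, 7 members and 20 other pathway genes passed. The labels do not state that same-numbered arrays of the 2 groups belong together. Correlations of their deviations were -0.0772 to 0.0622, and 2 of 4 control arrays correlated best with their own number, which cannot exclude a pairing. Only dim probe sets that never passed turned sign. Notch2 1451889_at ran from -0.14 to 0.0028 with 1 array left out and was 0.002 without luciferase arrays 3 and 4. Notch4 1456263_at ran from -0.09 to 0.069 and was 0.014 without luciferase arrays 1 and 2, and Notch4 1436901_at ran from -0.092 to 0.0079. The cause was not tested. Other scalings moved the median of all probe sets by less than 0.01. With 4 arrays a group, the smallest difference of a member that passed was 0.22.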

Other observations

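Among the tested probe sets, 456 groups have 1 empty value, and the 3 values left lie unusually close, with a median SD of 0.00322, against 0.0883 in 89618 complete groups. Kat2b, Dlk1 and the dimmer Rfng probe set are such cases, with control SDs of 0.0015, 0.0052 and 0.0014 on the probe sets described above. No member probe set has an empty value.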
